A study of Arabidopsis thaliana with 9 samples.

Results

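The plastid-encoded genes are the genes that remain in the chloroplast's own genome. The list holds 59 of them, matched by symbol to probe sets that name no other gene, and genes whose names are shared with the mitochondrial genome were left out. The array measured 54 of the 59, each with 1 probe set, among 38408 probe sets in all, of which 16722 name a single gene and together cover 16550 genes. Measured were 29 of 33 photosynthesis genes (psa, psb, pet, atp and rbcL), 10 of 11 ndh genes, 4 of 4 rpo genes, 4 of 4 ribosomal protein genes (rps and rpl) and 7 of 7 others. The 5 without a probe set of their own were psbC and psbD, which share one, atpB and atpE, which share another, and ndhB, whose probe set names both of its gene copies.

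The plants were wild-type Arabidopsis thaliana of the Col-0 background. Cotyledons of seedlings grown for 6 days in continuous light were cultured for 48 hours with bikinin, an inhibitor of GSK3-type kinases, at 10 µM, with 1.25 mg/L of the auxin 2,4-D and with 0.25 mg/L of the cytokinin kinetin before transfer to medium for companion cell (CC) induction. RNA was taken 96 hours after that induction from 3 groups of 3 samples each, which are CC-S, labelled as strong induction of companion cells, CC-M, labelled as moderate induction, and VISUAL, labelled as no induction. All 9 samples carry one description of the culture, and the sources used here give neither what set the media of CC-S, CC-M and VISUAL apart nor how many cotyledons a sample held. Nor do they say whether the replicates, numbered 3, 4 and 5 in each group, were separate cultures. The p-values therefore set group differences against the spread among these samples, which may be technical only, and 3 arrays a group limit their precision.

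Plastid genes are read by RNA polymerases of separate origins: a bacterial-type enzyme whose core is encoded by the plastid rpo genes and which needs nuclear sigma factors, and phage-type enzymes encoded in the nucleus. In leaves, genes for the photosystems depend mainly on the bacterial-type enzyme, whereas rpoB, rpoC1, rpoC2 and accD are known, from tobacco and Arabidopsis, as genes read by the phage-type one. Most plastid genes lie in units that are transcribed together and then cut, spliced, edited and stabilised by nuclear-encoded RNA-binding proteins, so the levels of neighbouring mRNAs can differ. The ndh genes encode subunits of the chloroplast NADH dehydrogenase-like (NDH) complex, which returns electrons from the stroma to the plastoquinone pool in cyclic electron flow around photosystem I.

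The values are the authors' log2 signals, on which a difference of 1 is a doubling, and "called" stands for a limma adjusted p under 0.05, adjusted over all 38408 probe sets. The members were bright: their mean signals over the 9 arrays lay between 8.88 (ccsA) and 13.24 (psbA), and the lowest stood at percentile 90.7 of all probe sets. CC-S replicate 3 was the highest CC-S array at 53 of 54 members and CC-S replicate 5 the lowest at 49 of 54. Replicate 3 was also the highest CC-S array at 12 of 12 measured genes of the mitochondrial genome, against 34.9% of all probe sets. The class medians and counts of calls for CC-S are therefore given with and without that array. In CC-M and VISUAL replicate 3 was also the most often highest array, at 33 and 38 of 54 members, and replicate 5 the most often lowest, at 27 and 26. The companion cell marker SAPL, the 1 measured of 6 on its list, averaged 8.57 ± 0.25 in CC-S, 7.65 ± 0.30 in CC-M and 5.52 ± 0.59 in VISUAL (SD, n = 3 each). The 1 measured mesophyll marker of 4, RCA, averaged 9.34 ± 0.09 in CC-S, 9.41 ± 0.08 in CC-M and 9.15 ± 0.13 in VISUAL. Each CC-S and CC-M array lay above each VISUAL array at RCA, but neither difference was called by limma, at 0.19 in CC-S (adjusted p = 0.167) and 0.26 in CC-M (adjusted p = 0.0888, unadjusted p = 0.0138). The xylem vessel marker IRX15, the 1 measured of 5, averaged 4.68 ± 0.49 in CC-S, 5.07 ± 0.51 in CC-M and 6.58 ± 0.51 in VISUAL, and fell in both, with differences of -1.91 in CC-S (adjusted p = 0.00586) and -1.51 in CC-M (adjusted p = 0.0268). The 3 markers of the guard cell line were not called, with CC-S differences of -0.48 (MUTE), -0.46 (FAMA, adjusted p = 0.064, unadjusted p = 0.0135) and 0.35 (SPCH, adjusted p = 0.154, unadjusted p = 0.045). MUTE was very dim, averaging 2.149 in CC-S, 2.293 in CC-M and 2.625 in VISUAL, where array medians over all probe sets were 4.714 to 4.899. Its difference is therefore weakly measured. None of the 3 sieve element and 3 procambium markers had a probe set of its own. The part of these cell types in the results below was not tested.

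With strong induction, most ndh genes, the rpo genes and some ribosomal protein genes were higher than in VISUAL. Most photosynthesis genes stayed close to their VISUAL level. In CC-S against VISUAL, 18 of the 54 members rose and 0 fell (limma, adjusted p under 0.05), against 10.1% of all probe sets called higher and 9.07% called lower. Calls in either direction were commoner among probe sets as bright as the members, from 14.4% above a signal of 12 to 37.7% between 8.5 and 10. The shares over all probe sets are thus a low standard for this count. The SEs of the called differences ran from 0.07 to 0.15. By class, 9 of 10 ndh genes, 4 of 4 rpo genes, 2 of 4 ribosomal protein genes, 2 of 7 others and 1 of 29 photosynthesis genes rose. The median log2 change was 0.53 for ndh, 0.44 for rpo, 0.30 for ribosomal protein genes, 0.31 for the others and 0.02 for photosynthesis genes, against 0.13 over all 54 members and 0.02 over all probe sets. In 22 members all CC-S arrays lay above all VISUAL arrays, against 17.2% of all probe sets. Without CC-S replicate 3, 12 members were called higher and 1 lower, with a median of 0.06 over all members. The class medians without that array were 0.45 for ndh (7 of 10 called), 0.33 for rpo (1 of 4), 0.24 for ribosomal protein genes (2 of 4), 0.20 for the others (1 of 7) and -0.04 for photosynthesis genes (2 of 29). The photosynthesis median has no firm direction, since it was also -0.05 when each array was centred on its median. In whole cotyledon samples, a change in the number of cells or plastids of a kind and a change in RNA per cell or plastid cannot be told apart.

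**Figure D1:**
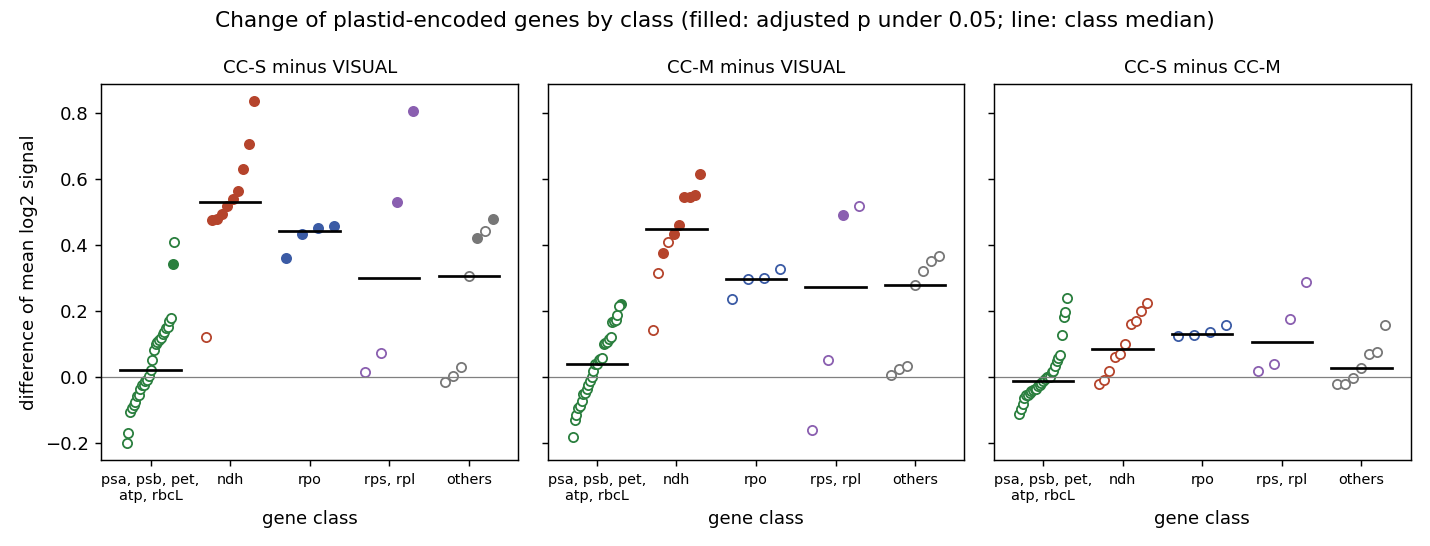
Difference of mean log2 signal (y axis) for each of the 54 measured plastid-encoded genes, grouped by class (x axis), for CC-S minus VISUAL, CC-M minus VISUAL and CC-S minus CC-M; filled points have a limma adjusted p under 0.05 and black lines are class medians. In CC-S minus VISUAL the ndh median stands at 0.53 and the photosynthesis median at 0.02, and no point is filled in CC-S minus CC-M.

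Among the ndh genes, the largest change was that of ndhF, which encodes a proton-pumping subunit of the membrane arm. Its log2 signals on replicates 3, 4 and 5, the order used throughout, were 9.82, 9.52 and 9.36 in CC-S, 9.40, 9.28 and 9.35 in CC-M and 8.64, 8.77 and 8.78 in VISUAL. Every CC-S and CC-M array lay above every VISUAL array, and the lowest CC-S array lay within the CC-M range. In CC-S it rose by 0.84 with an SE of 0.11, a 1.78-fold change (limma adjusted p = 0.00127). In CC-M it rose by 0.61, or 1.53-fold (adjusted p = 0.0101).

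ndhC, ndhK and ndhJ lie side by side and are transcribed together. ndhC, a small membrane-arm subunit, read 11.99, 11.89 and 11.72 in CC-S, 11.90, 11.91 and 11.84 in CC-M and 11.49, 11.38 and 11.12 in VISUAL. ndhK, which belongs to the stroma-facing arm and carries an iron-sulfur cluster, read 11.83, 11.59 and 11.46 in CC-S, 11.62, 11.59 and 11.60 in CC-M and 11.23, 11.08 and 10.88 in VISUAL. ndhJ, also of the stroma-facing arm, read 11.97, 11.85 and 11.75 in CC-S, 11.84, 11.78 and 11.77 in CC-M and 11.50, 11.36 and 11.24 in VISUAL. At all 3 genes the induced groups lay above VISUAL without overlap and overlapped each other. The 3 rose together in CC-S by 0.54 (ndhC, adjusted p = 0.00623), 0.56 (ndhK, adjusted p = 0.00761) and 0.49 (ndhJ, adjusted p = 0.00307). In CC-M the changes were 0.55 (ndhC, adjusted p = 0.0103), 0.54 (ndhK, adjusted p = 0.0151) and 0.43 (ndhJ, adjusted p = 0.0103). The 2 induced groups differed by -0.01 to 0.06 at these genes, with no call. The ndhK call in CC-M was lost without CC-M replicate 3 (adjusted p = 0.0515) or 4 (0.0509).

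The other ndh genes form a unit in the order ndhH, ndhA, ndhI, ndhG, ndhE, psaC and ndhD, of which 6 of 7 rose in CC-S and 3 of 7 in CC-M. Over all probe sets 10.1% were called higher in CC-S and 6.49% in CC-M. Calls in either direction were commoner at this brightness. They made up 37.4% in CC-S and 22.6% in CC-M at signals of 10 to 11, and 32.5% and 21.1% at 11 to 12. ndhH, a subunit of the stroma-facing arm, read 10.77, 10.50 and 10.31 in CC-S, 10.52, 10.31 and 10.27 in CC-M and 9.85, 9.83 and 9.79 in VISUAL. The VISUAL arrays were nearly equal and lay below every induced array. The rise of ndhH was 0.71 in CC-S, or 1.63-fold (adjusted p = 0.00315), and 0.54 in CC-M (adjusted p = 0.018). ndhG, a membrane-arm subunit, read 10.76, 10.44 and 10.31 in CC-S, 10.39, 10.24 and 10.38 in CC-M and 10.05, 9.87 and 9.71 in VISUAL. Its rise was 0.63 in CC-S, or 1.55-fold (adjusted p = 0.00833), and 0.46 in CC-M (adjusted p = 0.0488). ndhE, another membrane-arm subunit, read 11.86, 11.63 and 11.61 in CC-S, 11.66, 11.53 and 11.60 in CC-M and 11.32, 11.22 and 11.14 in VISUAL. For ndhE the CC-S rise was 0.47, or 1.39-fold (adjusted p = 0.00397), and the CC-M rise 0.37 (adjusted p = 0.0198).

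ndhI and ndhA were called in CC-S and not in CC-M. ndhI, an iron-sulfur subunit of the stroma-facing arm, read 11.13, 10.81 and 10.56 in CC-S, 10.79, 10.55 and 10.55 in CC-M and 10.32, 10.31 and 10.31 in VISUAL. ndhI rose in CC-S by 0.52 (adjusted p = 0.0261), with a CC-M difference of 0.32 (adjusted p = 0.187). ndhA, the intron-containing gene of a membrane-arm subunit, read 11.77, 11.44 and 11.28 in CC-S, 11.43, 11.46 and 11.39 in CC-M and 11.18, 11.13 and 10.74 in VISUAL. ndhA rose in CC-S by 0.48 (adjusted p = 0.0469), with a CC-M difference of 0.41 (adjusted p = 0.109). Both genes were higher than VISUAL on every induced array. The ndhI call in CC-S was lost without any 1 VISUAL array and without either of CC-S replicates 3 and 4 (adjusted p 0.0529 to 0.0728), and the ndhA call without any array but CC-S replicate 5 or VISUAL replicate 3 (0.0619 to 0.134). With only the 2 groups compared in the fit, ndhI (0.056) and ndhA (0.109) were not called, and ndhA was not called with arrays centred on their medians (0.0751) or without the intensity trend (0.0771).

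The calls for ndhH, ndhG and ndhE in CC-M also changed with single arrays or settings. ndhH lost its call without CC-M replicate 3 (adjusted p = 0.0634) or VISUAL replicate 5 (0.0595). ndhE lost it without CC-M replicate 3 or 5 or VISUAL replicate 5 (0.0626 to 0.0722). ndhG lost it without any 1 CC-M array, without VISUAL replicate 4 or 5 and without CC-S replicate 4 (0.0764 to 0.147). ndhG and ndhE were also not called in CC-M with arrays centred on their medians (0.093 and 0.0594) or without the intensity trend (0.0862 and 0.0595). In CC-S these 3 genes kept their calls in all of the 18 other settings and left-out arrays.

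ndhD, which encodes a proton-pumping subunit of the membrane arm and lies at the far end of that unit, was the exception among the ndh genes. It read 12.39, 12.23 and 12.12 in CC-S, 12.29, 12.28 and 12.23 in CC-M and 12.24, 12.10 and 12.03 in VISUAL, with overlapping groups. Its difference was 0.12 in CC-S (95% interval -0.06 to 0.30, adjusted p = 0.361) and 0.14 in CC-M (-0.04 to 0.32, adjusted p = 0.327). ndhD was also the brightest ndh gene. psaC, which sits between ndhE and ndhD and encodes the iron-sulfur subunit of photosystem I, read 12.03, 11.87 and 11.81 in CC-S, 11.82, 11.76 and 11.74 in CC-M and 11.63, 11.46 and 11.59 in VISUAL. It was the 1 photosynthesis gene that rose in CC-S, by 0.34 or 1.27-fold (adjusted p = 0.0102), with a CC-M difference of 0.21 (adjusted p = 0.0962).

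**Figure D2:**
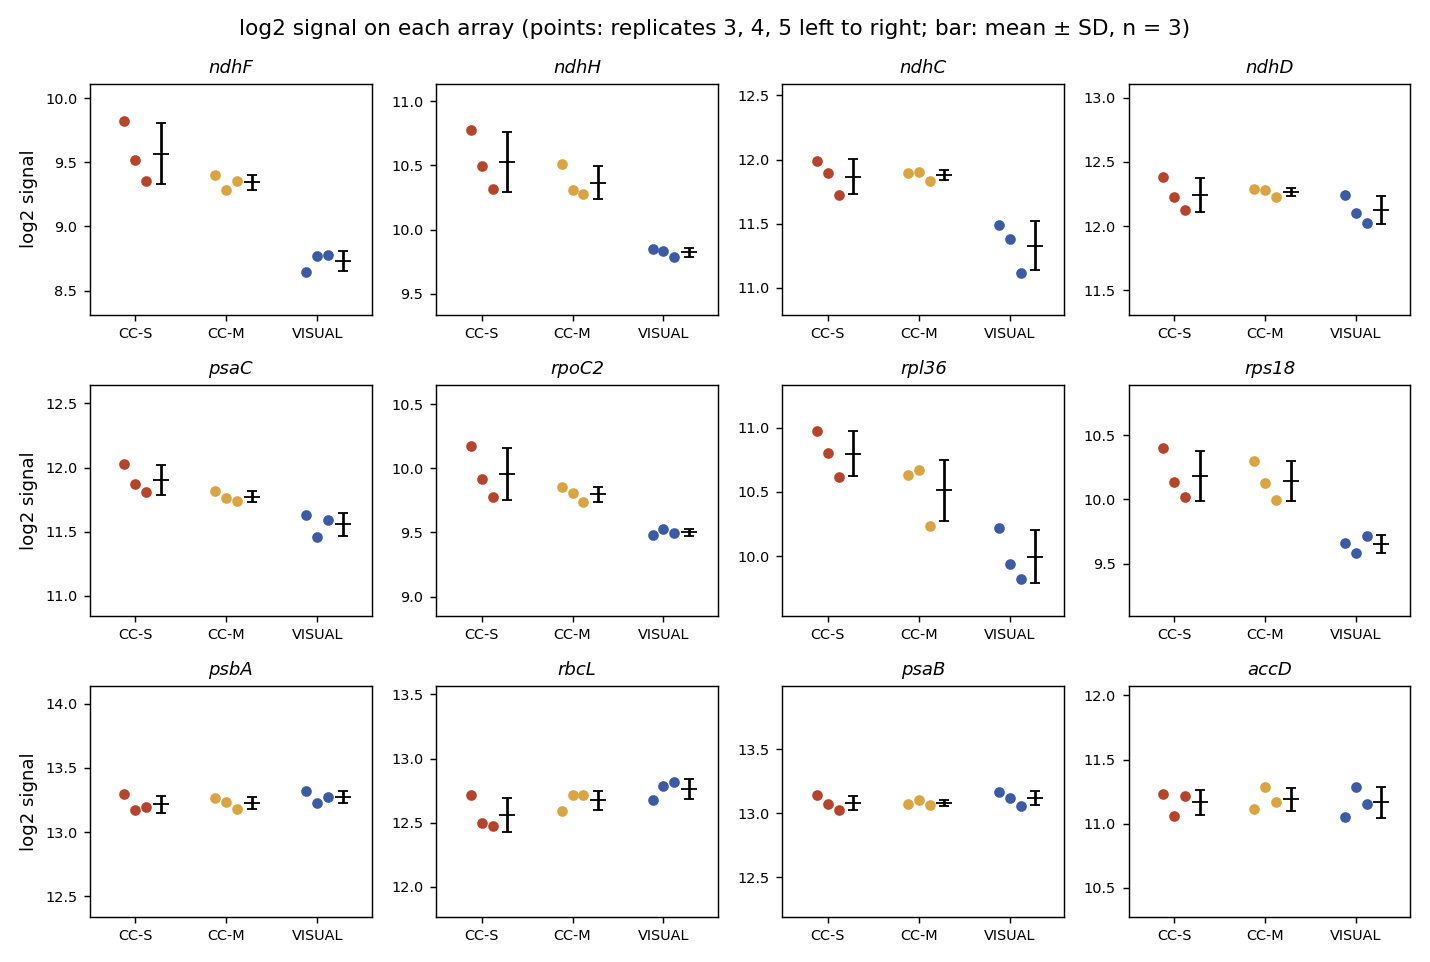
log2 signal (y axis) of 12 plastid-encoded genes on each of the 9 arrays (x axis, CC-S, CC-M and VISUAL), with points for replicates 3, 4 and 5 from left to right and bars for the mean ± SD of 3 arrays; every panel spans the same height on the log2 scale. For ndhF, ndhH, ndhC, psaC, rpoC2, rpl36 and rps18 all CC-S and CC-M points lie above all VISUAL points, while for ndhD, psbA, rbcL, psaB and accD the groups overlap.

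The rpo genes encode the core of the bacterial-type plastid RNA polymerase. rpoC2, for the largest subunit, read 10.18, 9.92 and 9.77 in CC-S, 9.85, 9.81 and 9.73 in CC-M and 9.48, 9.53 and 9.49 in VISUAL. rpoC1, a catalytic subunit, read 10.53, 10.16 and 10.08 in CC-S, 10.21, 10.10 and 10.09 in CC-M and 9.96, 9.71 and 9.74 in VISUAL. At both genes each induced array lay above each VISUAL array. rpoB, the other catalytic subunit, read 9.95, 9.72 and 9.56 in CC-S, 9.66, 9.57 and 9.62 in CC-M and 9.33, 9.34 and 9.48 in VISUAL. rpoA, the subunit on which the core assembles, read 11.39, 11.22 and 11.08 in CC-S, 11.20, 11.07 and 11.02 in CC-M and 11.00, 10.73 and 10.65 in VISUAL. These too were non-overlapping, with narrow margins between the lowest induced and the highest VISUAL array.

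In CC-S the 4 rpo genes rose by similar amounts: rpoC2 by 0.46 (adjusted p = 0.0111), rpoC1 by 0.45 (adjusted p = 0.0301), rpoA by 0.43 (adjusted p = 0.0232) and rpoB by 0.36 (adjusted p = 0.0315). rpoB, rpoC1 and rpoC2 form 1 transcription unit, and rpoA lies elsewhere in the genome. The rpoC2 call held in all 18 other settings and left-out arrays. The others did not: rpoC1 and rpoA lost their calls without any 1 of VISUAL replicates 4 and 5 and CC-S replicates 3 and 4 (adjusted p 0.0573 to 0.0916), and rpoB without any 1 of VISUAL replicates 3 and 4, CC-S replicates 3 and 4, and CC-M replicates 4 and 5 (0.0502 to 0.0874). These 3 genes were also not called with only the 2 groups compared (adjusted p 0.0573 to 0.0816), with arrays centred on their medians (0.0536 to 0.063) or without the intensity trend (0.0502 to 0.0662), which left 1 of 4 rpo genes called in each of these settings, as without CC-S replicate 3. In CC-M none of the 4 was called, with differences of 0.24 (rpoB) to 0.33 (rpoC1) and adjusted p of 0.0887 to 0.179, although all 4 were higher at an unadjusted p under 0.05, as were 13.2% of all probe sets. Without CC-S replicate 3, whose removal changes the shared estimate of spread, rpoC2 (adjusted p = 0.0298) and rpoC1 (0.0454) were called in CC-M, and without VISUAL replicate 3 rpoA was (0.046). With only the 2 groups compared, rpoC2 was called in CC-M (0.038).

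Among the 4 ribosomal protein genes, rpl36 and rps18 rose in CC-S and rpl20 and rpl33 were not called. rpl36, a small protein of the large ribosomal subunit, read 10.97, 10.81 and 10.62 in CC-S, 10.63, 10.67 and 10.23 in CC-M and 10.22, 9.94 and 9.82 in VISUAL. It rose in CC-S by 0.81, or 1.75-fold (adjusted p = 0.00594). In CC-M it differed by 0.52 (adjusted p = 0.0602) and was called there with quantile normalization (0.0446), without the dimmest probe sets (0.0365), with single-gene probe sets alone (0.0369), and without CC-M replicate 5 (0.0316) or VISUAL replicate 3 (0.045). rps18, a protein of the small ribosomal subunit, read 10.40, 10.13 and 10.02 in CC-S, 10.30, 10.13 and 10.00 in CC-M and 9.66, 9.58 and 9.72 in VISUAL. It rose in CC-S by 0.53 (adjusted p = 0.0106) and in CC-M by 0.49 (adjusted p = 0.024). The CC-M call of rps18 was lost without CC-M replicate 3 or 4 or any 1 VISUAL array (adjusted p 0.0535 to 0.0805), and without the intensity trend (0.0504).

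rpl33 lies next to rps18 in the same transcription unit and was not called. It read 10.54, 10.30 and 10.21 in CC-S, 10.27, 10.02 and 10.24 in CC-M and 10.34, 10.16 and 10.52 in VISUAL, a CC-S difference of 0.01 (95% interval -0.26 to 0.29). The 3 photosynthesis genes upstream in that unit, petL, petG and psaJ, differed in CC-S by -0.01, -0.01 and -0.08. rpl20, among the brightest members, differed by 0.07 (adjusted p = 0.366). A further 9 plastid ribosomal protein genes are not among the 59 and were matched here by gene number. Of these, 6 rose in CC-S, against 10.1% of all probe sets (rps19 by 0.89, rps16 by 0.79, rps15 by 0.55, rpl14 by 0.51, rps2 by 0.50 and rpl16 by 0.39) and 3 in CC-M, against 6.49% (rps19, rps16 and rpl14), with medians of 0.50 in CC-S and 0.37 in CC-M. CC-S replicate 3 was the highest CC-S array at 9 of these 9. Without it, a setting applied to these genes after the data were seen, 5 were called in CC-S with a median of 0.38, and rpl16 was not (0.30, adjusted p = 0.11), while 5 were called in CC-M (rps15 and rps2 added).

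The remaining 7 genes have separate roles. ccsA, needed to attach haem to c-type cytochromes and the dimmest member, read 9.33, 9.01 and 8.92 in CC-S, 9.05, 8.78 and 8.96 in CC-M and 8.58, 8.56 and 8.68 in VISUAL. ccsA rose in CC-S by 0.48 (adjusted p = 0.0194), a call lost without VISUAL replicate 3 (0.0548) or 4 (0.0538). matK, the plastid intron maturase, read 12.32, 12.07 and 11.90 in CC-S, 12.21, 11.93 and 11.94 in CC-M and 11.60, 11.73 and 11.70 in VISUAL. matK rose in CC-S by 0.42 (adjusted p = 0.0325), a call lost without any 1 VISUAL array and without either of CC-S replicates 3 and 4 (0.0583 to 0.0961), and without the intensity trend (0.0658). In CC-M, ccsA differed by 0.32 (adjusted p = 0.119) and matK by 0.35 (adjusted p = 0.0883).

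cemA, an envelope membrane protein, and ycf4, an assembly factor of photosystem I, are neighbours between psaI and petA. cemA differed in CC-S by 0.44 (adjusted p = 0.0829) and ycf4 by 0.31 (adjusted p = 0.105), and without VISUAL replicate 3 cemA was called (0.60, adjusted p = 0.02). Their flanking photosynthesis genes differed less, psaI by -0.08 and petA, for cytochrome f, by 0.11. accD, the plastid-encoded subunit of acetyl-CoA carboxylase in fatty acid synthesis, read 11.23, 11.06 and 11.22 in CC-S, 11.11, 11.29 and 11.17 in CC-M and 11.05, 11.29 and 11.15 in VISUAL. Its CC-S difference was 0.00 (95% interval -0.18 to 0.19). clpP, the catalytic subunit of the Clp protease, read 12.47, 12.29 and 12.23 in CC-S, 12.37, 12.39 and 12.29 in CC-M and 12.42, 12.30 and 12.31 in VISUAL, a CC-S difference of -0.01 (-0.18 to 0.15). ycf3, another photosystem I assembly factor, differed by 0.03 (-0.10 to 0.17). The 4 genes named above as read by the phage-type polymerase thus had CC-S differences of 0.00 (accD) and of 0.36 to 0.46 (rpoB, rpoC1 and rpoC2).

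**Figure D3:**
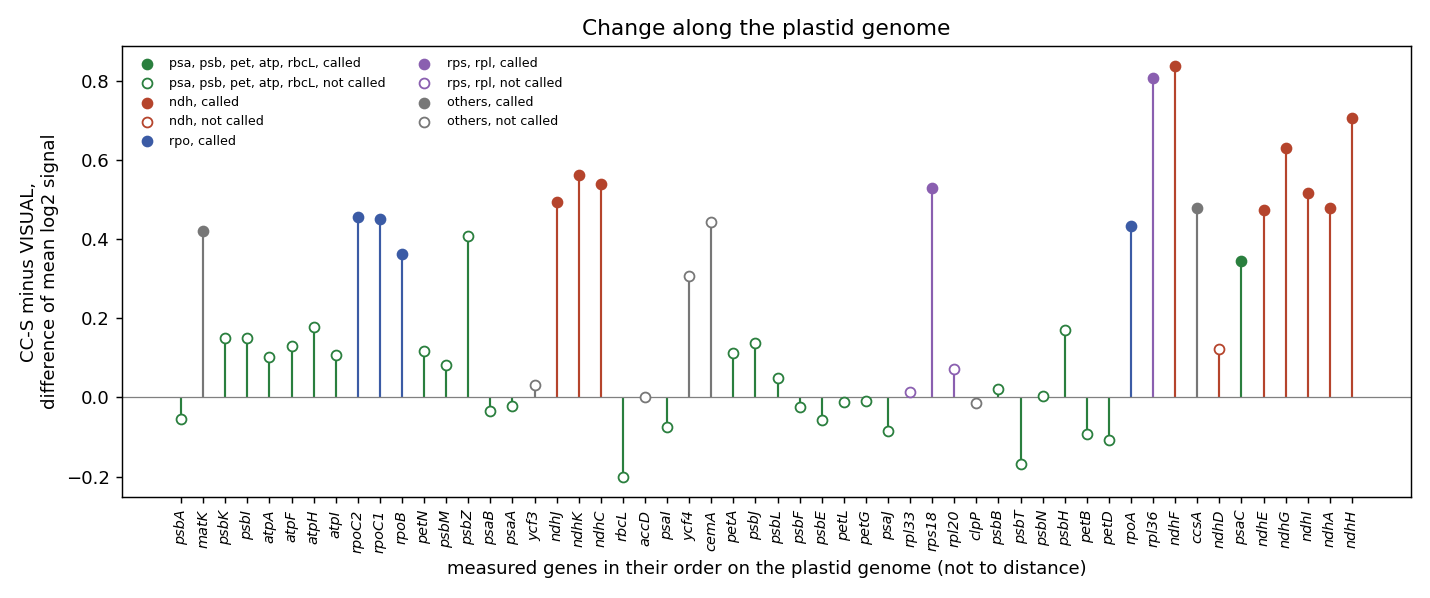
CC-S minus VISUAL difference of mean log2 signal (y axis) for the 54 measured plastid-encoded genes in their order on the plastid genome (x axis, not to distance); colour marks the class and filled points have a limma adjusted p under 0.05. The filled points stand in groups at rpoC2 to rpoB, at ndhJ to ndhC and from rpoA to ndhH, where ndhD at 0.12 is the exception, and singly at matK and rps18.

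The photosynthesis genes were the brightest class and had the smallest class median. In CC-S against VISUAL, 27 of 29 lay within 0.25 of 0 on the log2 scale, with a range of -0.20 (rbcL) to 0.41 (psbZ). The exceptions were psaC, described above with its ndh neighbours, and psbZ. psbA, which encodes the D1 reaction centre protein of photosystem II and was the brightest member, read 13.29, 13.17 and 13.19 in CC-S, 13.27, 13.23 and 13.18 in CC-M and 13.32, 13.23 and 13.28 in VISUAL. Its groups overlapped, with a CC-S difference of -0.06 (95% interval -0.17 to 0.06). psbZ, a small photosystem II subunit, read 11.93, 11.54 and 11.47 in CC-S, 11.47, 11.21 and 11.55 in CC-M and 11.10, 11.11 and 11.51 in VISUAL, and its difference of 0.41 was not called (adjusted p = 0.113). psbK, another small subunit of photosystem II, was not called but became so with quantile normalization (0.17, adjusted p = 0.0244) or without VISUAL replicate 3 (0.19, adjusted p = 0.0346).

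rbcL, the large subunit of the carbon-fixing enzyme Rubisco, had the most negative difference. It read 12.72, 12.50 and 12.47 in CC-S, 12.59, 12.72 and 12.72 in CC-M and 12.68, 12.79 and 12.82 in VISUAL. The CC-S difference was -0.20 (95% interval -0.38 to -0.02, adjusted p = 0.114) and the CC-M difference -0.09 (adjusted p = 0.565). Without CC-S replicate 3, its highest CC-S array, rbcL was called lower in CC-S (-0.28, adjusted p = 0.0306), the 1 member called lower in any setting. Replicate 3 sat high at nearly every member, as described above.

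By complex, the median CC-S differences were -0.04 over 5 photosystem I genes, 0.05 over 13 photosystem II genes, -0.01 over 6 cytochrome b6f genes and 0.12 over 4 ATP synthase genes. The core photosystem I genes psaA and psaB differed by -0.02 and -0.04, and psbB, for the CP47 antenna protein, by 0.02. The unit psbB, psbT, psbH, petB and petD held differences of -0.17 (psbT) to 0.17 (psbH) with 0 of 5 called. psbT was measured poorly, with a CC-S SD of 0.83 and an interval of -1.03 to 0.69. petB, for cytochrome b6, was the 1 member whose CC-S arrays all lay below its VISUAL arrays (13.12, 13.09 and 13.00 in CC-S, against 13.23, 13.12 and 13.14 in VISUAL), a difference of -0.09 that was not called (adjusted p = 0.313). Over all probe sets 15.4% were non-overlapping in that direction.

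The ATP synthase genes atpI, atpH, atpF and atpA form 1 unit, and their differences were all positive, from 0.10 to 0.18 in CC-S and from 0.10 to 0.22 in CC-M. atpH, for the ring-forming subunit c, read 13.17, 13.18 and 13.15 in CC-S, 13.22, 13.21 and 13.19 in CC-M and 13.02, 13.08 and 12.86 in VISUAL. Every induced array lay above every VISUAL array. atpH rose in CC-M by 0.22 or 1.17-fold (adjusted p = 0.0396) and was the 1 member called in CC-M and not in CC-S, where it differed by 0.18 (adjusted p = 0.0604). The CC-M call was lost without any 1 array but VISUAL replicate 4 (adjusted p 0.0548 to 0.111), with only the 2 groups compared (0.0947), with arrays centred on their medians (0.192) and without the intensity trend (0.168). In CC-S atpH was called without VISUAL replicate 4 (0.0296), with quantile normalization (0.0309), with array weights (0.0459) and without the dimmest probe sets (0.0483).

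In CC-M against VISUAL, 9 of the 54 members rose and 0 fell, against 6.49% of all probe sets called higher and 5.15% called lower. Calls were commoner at the members' signal levels. In either direction, 25.6% of probe sets between 8.5 and 10 were called and 22.6% between 10 and 11. Between 11 and 12 the share was 21.1%, and above 12 it was 13.1%. The shares over all probe sets are thus a low standard for the count of 9. The 9 were 7 of 10 ndh genes (ndhC, ndhE, ndhF, ndhG, ndhH, ndhJ and ndhK), rps18 and atpH. The median log2 change was 0.45 for ndh, 0.30 for rpo, 0.27 for ribosomal protein genes, 0.28 for the others and 0.04 for photosynthesis genes, which became -0.03 with arrays centred on their medians. Although few were called, 27 of 54 members had all CC-M arrays above all VISUAL arrays, against 14.7% of all probe sets, and 0 had them all below, against 12.9%. The count of calls depended on single arrays: it was 3 without CC-M replicate 3, 5 without CC-M replicate 4 and 4 without VISUAL replicate 5. ndhC, ndhF and ndhJ stayed called in all 18 other settings and left-out arrays.

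Comparisons of CC-S and of CC-M with VISUAL use the same 3 VISUAL arrays, so their values stand side by side without a measure of their likeness. Of the members, 8 were called in both, 10 in CC-S alone, atpH in CC-M alone and 35 in neither. Over all probe sets 10.1% were called higher in CC-S and 6.49% in CC-M. The share called in both was not counted, so whether 8 is many cannot be said. Set directly against CC-M, CC-S had 0 of 54 members called by limma and 0 at an unadjusted p under 0.05, against 0.0208% and 12.8% of all probe sets. The largest differences were 0.29 for rpl36 (95% interval -0.05 to 0.63), 0.24 for psbZ (-0.12 to 0.59) and 0.22 for ndhF (-0.03 to 0.48). The class medians were 0.13 for rpo, 0.11 for ribosomal protein genes, 0.08 for ndh, 0.03 for the others and -0.01 for photosynthesis genes. Means ran in the order CC-S, CC-M, VISUAL from high to low at 26 of 54 members, among them 8 of 10 ndh genes, against 25% of all probe sets, and in the reverse order at 8 of 54, against 22.8%. Without CC-S replicate 3 the class medians of CC-S minus CC-M were 0.04 for rpo, 0.05 for ribosomal protein genes, 0.01 for ndh, -0.05 for the others and -0.06 for photosynthesis genes, and the median over all members, 0.02, became -0.04.

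Because all members of an array share its labelling and scaling, the ndh genes were also set against the photosynthesis genes within each array. The median ndh signal minus the median photosynthesis signal was -0.73, -0.90 and -0.95 in CC-S, -0.95, -1.02 and -0.98 in CC-M and -1.27, -1.29 and -1.43 in VISUAL. Every induced array thus had a smaller gap between the classes than every VISUAL array, and CC-S and CC-M met at -0.95. The group means were -0.86 ± 0.11 in CC-S, -0.98 ± 0.04 in CC-M and -1.33 ± 0.09 in VISUAL (SD, n = 3 each). The photosynthesis medians themselves overlapped, at 12.53, 12.42 and 12.32 in CC-S, 12.48, 12.51 and 12.48 in CC-M and 12.48, 12.39 and 12.24 in VISUAL. For rpo, the same within-array gap was -2.18, -2.38 and -2.39 in CC-S, -2.45, -2.56 and -2.56 in CC-M and -2.76, -2.77 and -2.62 in VISUAL, again with no overlap between induced and VISUAL arrays. Probe sets differ in response, so these gaps are compared between arrays and are not ratios of transcripts. The gaps use the same signals as the calls above and add no separate evidence. From CC-S replicate 3 to replicate 5 the ndh median went from 11.795 to 11.367 and the photosynthesis median from 12.528 to 12.316. A shift of a whole array can therefore also change the gap.

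**Figure D4:**
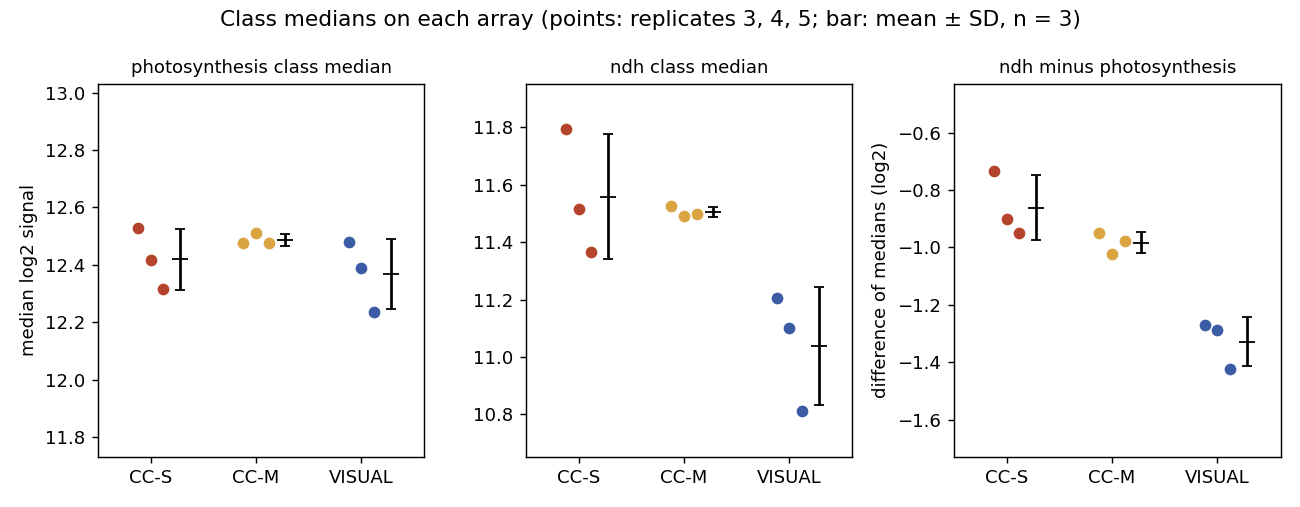
Median log2 signal of the photosynthesis genes and of the ndh genes, and the ndh median minus the photosynthesis median (y axes), on each array of CC-S, CC-M and VISUAL (x axes), with points for replicates 3, 4 and 5 and bars for the mean ± SD of 3 arrays. The photosynthesis medians overlap between groups, while the difference of medians lies between -0.73 and -1.02 on the 6 induced arrays and between -1.27 and -1.43 on the 3 VISUAL arrays.

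Signal level moved with these results. Of the 54 members, 23 had a mean signal above 12, which 0.417% of all probe sets reach, and 19 of these 23 were photosynthesis genes. In CC-S against VISUAL 14.4% of the 160 probe sets above 12 were called, with a median absolute change of 0.09, against 32.5% and 0.16 of the 421 between 11 and 12. Between 11 and 12, where both kinds of member are found, 7 photosynthesis genes had a median change of 0.12 with 1 called, and 9 other members had a median of 0.47 with 7 called. Above 12, 0 of 19 photosynthesis genes and 0 of 4 other members were called in CC-S. Among the 9 plastid ribosomal protein genes outside the list, 2 of such signal were called in CC-S, while others as bright were not. They were rpl14 and rpl16, with means in CC-S, CC-M and VISUAL of 12.67, 12.64 and 12.17 (rpl14) and 12.25, 12.18 and 11.87 (rpl16). Between 8.5 and 11, 10 of 12 members outside photosynthesis were called and 0 of 3 photosynthesis genes, against 37.7% of all 2996 probe sets between 8.5 and 10 and 37.4% of the 944 between 10 and 11. Across the 54 members the mean signal and the CC-S change had a Pearson r of -0.571, as a description over genes that share the arrays. The highest value in the table is 13.88, and how near the brightest members came to the limit of the scanner was not tested.

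**Figure D5:**
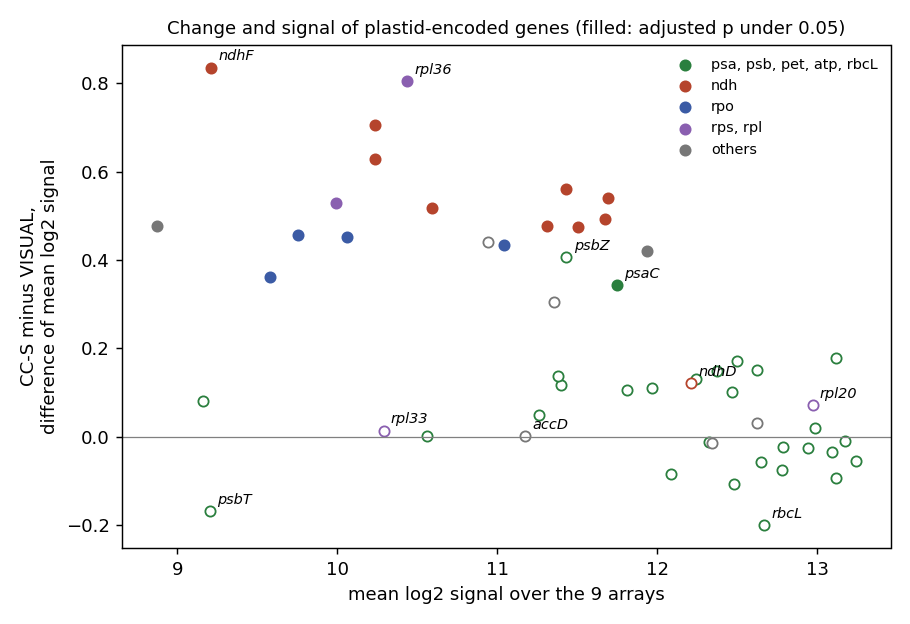
CC-S minus VISUAL difference of mean log2 signal (y axis) against the mean log2 signal over the 9 arrays (x axis) for the 54 measured plastid-encoded genes, coloured by class, with filled points for a limma adjusted p under 0.05. No filled point lies above a signal of 12, and below it filled ndh, rpo and ribosomal points stand above open photosynthesis points of similar signal.

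Of 26 listed genes of the mitochondrial genome, 12 had a probe set of their own, with group means of 9.37 to 12.83, and 0 were called by limma in any of the 3 comparisons. None had an unadjusted p under 0.05, against 30.2% of all probe sets in CC-S and 24.1% in CC-M against VISUAL. Their median change was 0.09 in CC-S against VISUAL and 0.03 in CC-M against VISUAL, with a largest CC-S difference of 0.24 (atp1, adjusted p = 0.243). Without CC-S replicate 3, a setting applied to this list after the data were seen, their CC-S median was -0.0009, with 0 called and 1 at an unadjusted p under 0.05. Nuclear genes whose products work with the plastid-encoded ones were sparsely measured. Of 17 nuclear NDH subunit genes 3 were measured and 0 called, with CC-S differences of -0.37 (NDHL, adjusted p = 0.0799), -0.26 (NDHN) and -0.21 (NDHU), at group means of 3.33 to 4.91. Of 32 nuclear photosystem, ATP synthase and Rubisco genes 4 were measured, 0 called in CC-S and 1 in CC-M (PSAN, 0.38, adjusted p = 0.0386). Their CC-S differences went both ways, at 0.27 (PSAN), 0.15 (ATPC1), -0.23 (PSAE1) and -0.24 (LHCB4.1). Of 21 listed nuclear genes for plastid transcription 1 was measured, RPOTmp (AT5G15700). It fell by 0.78 in CC-S (adjusted p = 0.00148) and by 0.55 in CC-M (adjusted p = 0.014). Of 15 genes for chlorophyll synthesis and chloroplast development 2 were measured, and both were called higher in CC-S and in CC-M. Over all probe sets 10.1% were called higher in CC-S and 6.49% in CC-M, and 2 genes of 15 do not describe the list. CHLM, an enzyme of chlorophyll synthesis, rose by 1.16 in CC-S (limma adjusted p = 9.15e-05) and 0.84 in CC-M (adjusted p = 0.000757). PORB, which makes chlorophyllide in light, rose by 0.95 in CC-S (adjusted p = 0.000869) and 0.74 in CC-M (adjusted p = 0.00555). Among 16 genes for plastid RNA processing 2 were measured and among 8 for plastid division 2, with 0 called in either list.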

How the data were processed

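The authors' deposited table holds log2 signals of 38408 probe sets on 9 Affymetrix arrays of 1 colour. Total RNA was purified with TRIzol and a column kit and made into biotinylated cRNA, per the labels' protocols. Per the submitters' processing notes, Affymetrix Expression Console was used; the sources used here name no version, summary method or genome build. The table gives no background or saturation marks, so no value could be set to a bound. Probe sets were named through GEO's platform annotation, and gene order and synonyms through a RefSeq gene table; no coordinates or sequences were used.

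The deposited values were tested without further scaling with limma 3.58.1 in R 4.3.3 (lmFit, then eBayes with an intensity trend), with 1 mean per group over all 9 arrays, two-sided, and Benjamini-Hochberg adjustment over all probe sets. Folds are 2 to the power of the log2 difference. No array duplicated another. Tables were made with Python 3.11.15 and pandas 2.3.3, and the fit was tested on simulated data. Of 100 simulated log2 changes of 1, 51 were called in CC-S against VISUAL and 42 in CC-M against VISUAL. Of 100 changes of 2, 93 and 89 were called. False calls among the 38408 probe sets numbered 7 and 12. The members' changes were all smaller than 1, so a member not called is not shown to be unchanged. The members and lists were chosen with earlier results of these data known. Array values are given for each class's extreme members, for the called members and for the brightest and dimmest; at most 4 genes are named from another list, except 6 of the added ribosomal genes, named after their values were seen. Every measured member could be named.

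Replicate numbers were not treated as pairs. Alternatives were a fit of the 2 groups compared, a replicate block, median centring, quantile normalization, no trend, array weights, no dim probe sets (the lowest 40%), single-gene probe sets alone, the average over probe sets of 1 gene, and each array left out. No other value columns were present.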

Additional observations from a re-analysis of the deposited data

How the results depend on the processing

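Beside the settings reported, each member was recomputed under 18 others, 9 of which leave out 1 array each. No called member changed sign in any of them. In CC-S against VISUAL the 18 calls became 13 with only the 2 groups compared, 14 with arrays centred on their medians, 20 with quantile normalization, 13 without the intensity trend, 19 with array weights, 19 without the dimmest probe sets and 12 to 18 with 1 array left out, and the median change of 0.13 became 0.06 with centring and 0.06 to 0.18 with 1 array left out. In CC-M against VISUAL the 9 calls became 5 without the intensity trend, 6 with centring and 3 to 10 with 1 array left out, and the median change of 0.12 became 0.0472 with centring and 0.10 to 0.17 with 1 array left out. In CC-S against CC-M 0 members were called in every setting, with medians of -0.04 to 0.09 when 1 array was left out. Over all probe sets, the 8 calls between CC-S and CC-M became 0 to 847, and the 4470 calls in CC-M against VISUAL fell to 2450 without CC-M replicate 4. With the replicate number as a block, 20 members were called in CC-S (ycf4 and cemA added) and 13 in CC-M (rpoC1, rpoA, rpl36 and ndhA added). Between CC-S and CC-M 0 were called. The labels give no pairing for these numbers. Over all probe sets the deviations of same-numbered arrays from their group means had r of -0.0328 to 0.121 over 9 pairs, with 2 above 0.1. For the 18 pairs of different number r ran from -0.158 to 0.0839, with 0 above 0.1. The cause of these shifts was not tested. Each gene had 1 probe set, so averaging probe sets changed nothing.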
